A study of Mus musculus with 6 samples.

Results

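The genes described here are 49 genes of cell adhesion in N2a cells, a mouse neuroblastoma line: proteins of the extracellular matrix, their integrin and other surface receptors, the adaptors that couple integrins to the cytoskeleton, and actin with the proteins that bind it. They were taken by name from a list of 49 symbols, and all 49 were found among the 26656 distinct genes of the expression table, *Ctgf* and *Cyr61* under their newer symbols *Ccn2* and *Ccn1*. Of the 49 genes, 35 had a mean level high enough to be fitted, 10 lay under that minimum but were detected, and 4 were listed at 0 in every library. The list was put together with earlier results of this comparison known, so the differences between the groups are given as a description, without a p-value.

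Cells attach to the matrix through integrins, which pair an α with a β subunit and bind fibronectin, laminin or collagen outside the cell. Inside the cell, talin, vinculin, zyxin, paxillin and focal adhesion kinase gather at the integrin tails and join them to actin filaments. Filament assembly, crosslinking and contraction then depend on cofilin, profilin, filamin, α-actinin, tropomyosin and non-muscle myosin. In cells of the neural crest lineage, from which neuroblastoma arises, these proteins are known for their part in migration and neurite outgrowth.

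Total RNA was compared between 3 control (CTR) libraries and 3 NPM1 knockdown (NPM1 KD) libraries. All cells were N2a cells labelled with a WT genotype. CTR cells received the pLKO.1-shCTR plasmid, which carries a non-target short hairpin RNA, and NPM1 KD cells the pLKO.1-shNpm1 plasmid, which carries 1 hairpin against *Npm1*. Puromycin at 9.3 µg/ml selected transfected cells from 24 h, and RNA was taken at 72 h, day 3 in vitro. No second hairpin or rescue enters the comparison. The knockdown is a transient one in a pool of cells of 1 line. The labels state 3 biological replicates in one place and 2 in another. The spread between these libraries may therefore in part be technical. The p-values rest on this spread and on a floor set on the variance, that of rounding to whole numbers. Where values were uniform within both groups, the floor stands in for a measured spread.

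Expression was read as regularized log (rlog) values, a log2 measure of the normalized count that shrinks low counts towards the mean of the gene. Every value of 1 or more in size was deposited as a whole number, so 1 unit stands for about a 2-fold step and smaller steps within a library are lost. Rounding can also turn a change of under 1 unit into a full step, where the values lie on either side of a rounding edge. Differences are given in these log2 units as NPM1 KD minus CTR. *Npm1* itself, the target of the hairpin, had the value 10 in every CTR library and 8 in every NPM1 KD library. Its difference of -2 ± 0.33 (SE) passed the test across all genes (limma, Benjamini-Hochberg adjusted p = 3.23e-06). Since its values were uniform in both groups, this SE rests on the floor and on the fit across all genes. Low genes gave a relative sequencing depth of 1.11 to 1.30 in the CTR libraries and of 0.784 to 0.961 in the NPM1 KD libraries, so that depth moved with the groups, and its part in the differences was not tested. The mean rlog value over the 5752 genes fitted was 5.31 in every CTR library and 5.27 to 5.30 in the NPM1 KD libraries. Of these genes, 0.417% passed an adjusted p of 0.05 as lower upon NPM1 KD and 0.0695% as higher, 0.487% in all. The 3 NPM1 KD values all lay under the 3 CTR values in 3.41% of the genes and all above them in 2.19%.

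N2a cells carried transcripts of some markers of sympathoadrenal neuroblasts. Of 12 such markers, *Nefl* and *Nefm* were listed at 0, and *Hand2*, *Chga*, *Chgb*, *Stmn2*, *Tubb3* and *Isl1* were high enough to be fitted. The others were detected under the minimum for the fit. Among them, *Th*, *Dbh* and *Gata3* had mean normalized counts of 2.43, 3.547 and 7.485. The markers were chosen with earlier results of these data known, so their differences are given as a description, without a p-value. *Chga* and *Chgb*, which encode secretory granule proteins, had differences of -1.33 and -1.67 without overlap. *Stmn2*, *Tubb3* and *Isl1* did not overlap between the groups either, with a difference of -1 each. Over all fitted genes the groups separated with NPM1 KD lower in 3.41%, and nothing is read from the markers against this share. *Hand2*, a transcription factor gene, had the opposite sign, with values of 8, 7 and 8 in CTR and 8 in each NPM1 KD library (difference 0.33). Another marker, too low to be fitted, also lay higher without overlap, at 0.30 to 0.38 in CTR and 0.41 to 0.54 in NPM1 KD. The summed level of the 12 markers was 1327 to 1457 in CTR and 767.3 to 799.5 in NPM1 KD, as 2 to the power of the rlog value. Fibroblasts and endothelial cells also make much matrix. Of 7 fibroblast markers 3 were listed at 0, among them *Col1a2* and *Col3a1*, *Col1a1* had a mean normalized count of 0.128, and their summed level was 6.14 to 6.39 in CTR and 6.16 to 6.46 in NPM1 KD. Of 4 endothelial markers *Cdh5* and *Kdr* were listed at 0, and the summed level was 2.25 to 4.25 in CTR and 2.25 in NPM1 KD. Of 5 immune markers 4 were listed at 0, with a summed level of 0.5 in CTR and 0.5 to 0.552 in NPM1 KD. In bulk RNA, fewer cells that express a gene and less of its RNA per cell cannot be told apart.

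**Figure D1:**
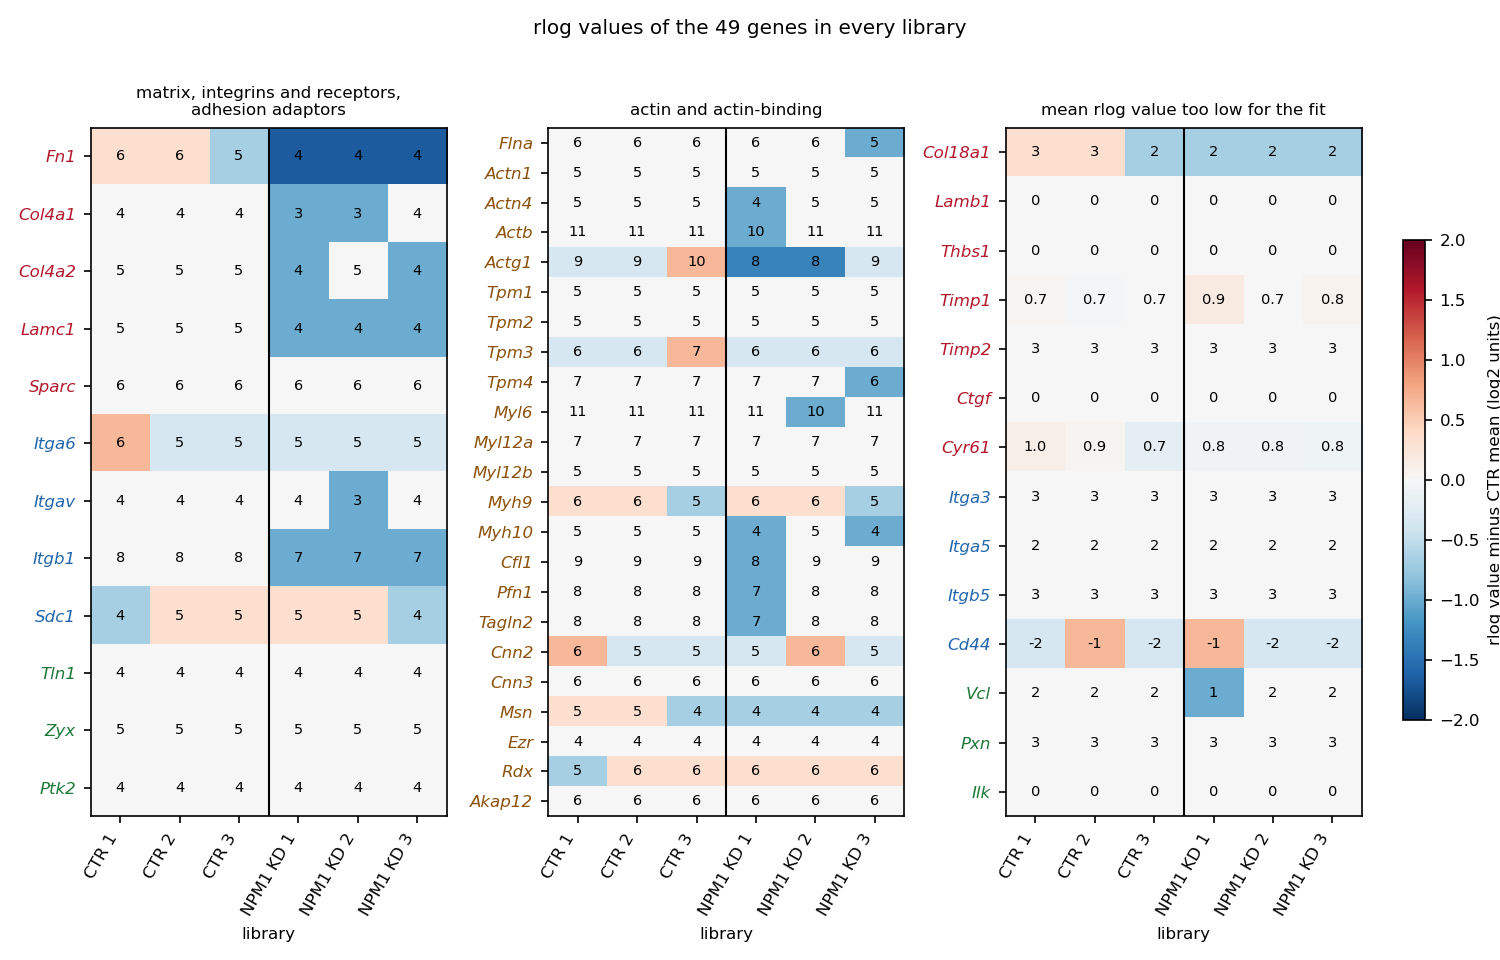
Heat map of the rlog value (printed in each cell, log2 units, rounded to 1 decimal under 1) of all 49 genes (rows) in the 3 CTR and 3 NPM1 KD libraries (columns), coloured by the value minus the CTR mean of that gene. Gene names are coloured by group (red, matrix; blue, integrins and receptors; green, adaptors; brown, actin and actin-binding). *Fn1*, *Lamc1* and *Itgb1* are the rows whose 3 NPM1 KD cells all lie under the 3 CTR cells, while 12 of the 35 fitted genes show 1 value throughout.

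Over the 35 fitted genes, the mean was lower upon NPM1 KD for 19, equal for 15 and higher for 1. Among all fitted genes, 27.4% had a lower mean, 48.0% an equal one and 24.6% a higher one. The median difference was -0.33 over the 35 genes and 0 over all genes, and the means were -0.30 and -0.02. *Fn1* was the 1 gene of the 35 past the threshold of the fit across all genes, and *Fn1*, *Lamc1* and *Itgb1*, or 8.57%, did not overlap between the groups. These counts describe genes chosen with the comparison in view, and nothing is read from them against the background. The call of *Fn1* was lost without CTR replicate 1, without CTR replicate 2 and without the floor that was set on the variance, and *Fn1* was not fitted at a mean rlog of at least 5. The mean difference was -0.80 over 5 matrix genes, -0.42 over 4 integrins and receptors, 0 over 3 adaptors and -0.22 over 23 actin and actin-binding genes, and the groups were not tested against each other. With no filter on low values the mean was -0.52 over 9 matrix genes and -0.24 over 7 integrins and receptors, and at a mean rlog of at least 5 it was 0 for the 1 matrix gene left and -0.67 over 2 integrins and receptors.

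**Figure D2:**
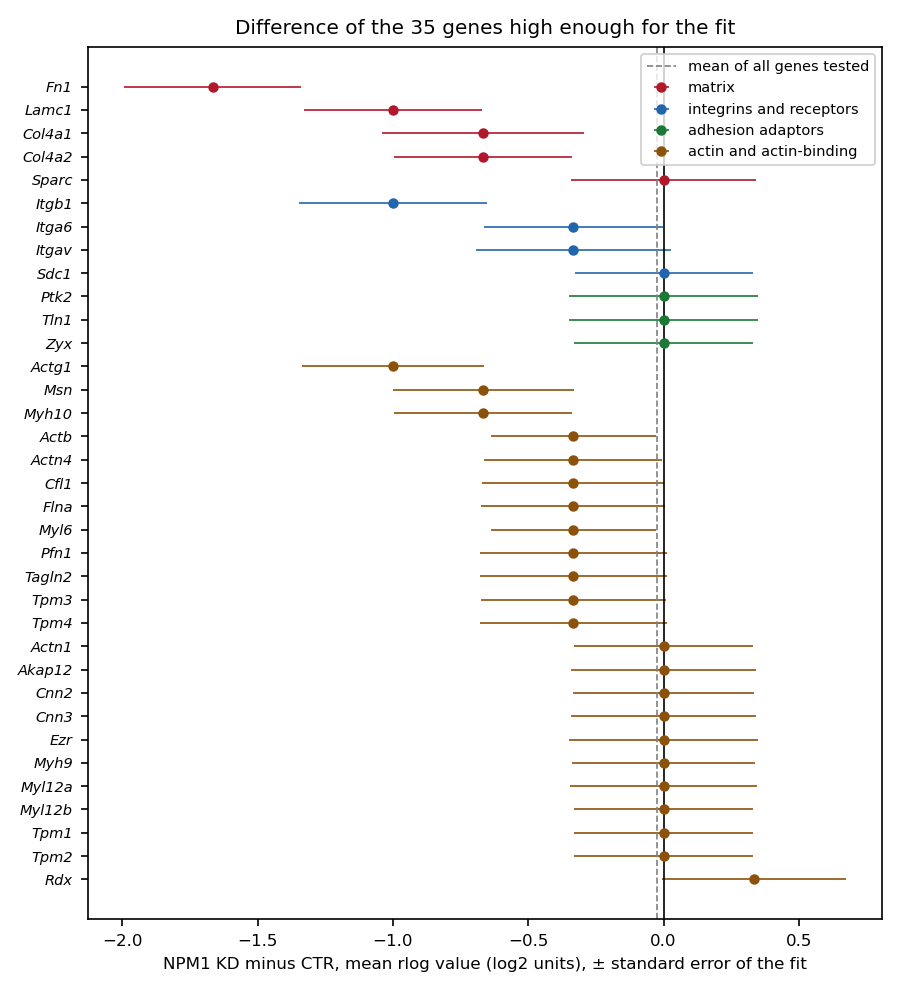
Difference between the group means (NPM1 KD minus CTR, rlog, log2 units, 3 libraries per group) of each of the 35 fitted genes, with bars of ± 1 standard error of the fit. Points are coloured by group, and the dashed line marks the mean of all fitted genes, -0.02. *Fn1* lies farthest to the left at -1.67, *Lamc1*, *Itgb1* and *Actg1* lie at -1, the 3 adaptors lie on 0, and *Rdx* is the 1 gene to the right of 0.

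Of the 12 matrix genes, 5 were fitted. *Fn1* encodes fibronectin, the matrix glycoprotein that is assembled into fibrils by integrins. Its rlog value was 6, 6 and 5 in the CTR libraries and 4, 4 and 4 in the NPM1 KD libraries, with means of 5.67 ± 0.58 (SD, n = 3) and 4 ± 0. All NPM1 KD libraries lay under all CTR libraries, by -1.67 ± 0.33 (SE) between the means. Its mean normalized count over the 6 libraries was 37.7.

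*Lamc1* encodes the laminin γ1 chain, which is shared by most laminins of basement membranes. It stood at 5 in all 3 CTR libraries and at 4 in all 3 NPM1 KD libraries, a difference of -1 ± 0.33 (SE), so that both groups were uniform and apart by a single step. The laminin β1 gene *Lamb1* was listed at 0. Other chains were low: *Lama4* stood at 4, 3 and 3 in CTR and at 3 in each NPM1 KD library, *Lama5* at 2 in all libraries, and *Lamb2* at 0.99 to 1. A partner chain at a level that could be fitted was thus not found for *Lamc1* among the laminin genes measured.

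*Col4a1* and *Col4a2* encode the collagen IV chains that wind into 1 trimer, and the genes sit head to head on opposite strands. *Col4a1* stood at 4 in each CTR library and at 3, 3 and 4 in NPM1 KD. *Col4a2* stood at 5 in each CTR library and at 4, 5 and 4 in NPM1 KD. Both had a difference of -0.67, with 1 NPM1 KD library at the CTR level, but it was replicate 3 for *Col4a1* and replicate 2 for *Col4a2*. The other collagen IV genes *Col4a3*, *Col4a4*, *Col4a5* and *Col4a6* were listed at 0.

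*Sparc*, which encodes a collagen-binding matricellular protein, stood at 6 in all 6 libraries with a mean normalized count of 66.2. *Col18a1*, the source of endostatin, lay under the minimum at 3, 3 and 2 in CTR and 2 in each NPM1 KD library. The metalloproteinase inhibitor gene *Timp2* stood at 3 throughout, and *Timp1* was between 0.66 and 0.86. *Cyr61*, a matricellular target of YAP and SRF signalling, was between 0.68 and 0.98. *Thbs1* and *Ctgf*, which encode further matricellular proteins, were listed at 0. Since *Gapdh*, which every cell uses, had a mean normalized count of only 33.5, a listing at 0 is not read as absence.

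A further 76 matrix genes were looked up from a list that did not contain any of the 49, and 15 of them were fitted. Of these 15, 13 had a lower mean upon NPM1 KD, 1 an equal and 1 a higher one, with a median difference of -0.67. The fit across all genes called 0 of them (limma, adjusted p of 0.0791 or more), with 7 at an unadjusted p under 0.05. In that fit 28 of 5752 genes were called and 813 had an unadjusted p under 0.05. The smallest difference called was 1.33 in size. Over this and the other lists of further genes the differences ranged from -1 to 0.67, so nothing is read from 0 being called in any of them. In 5 genes, or 33.3%, the groups did not overlap, against 3.41% of all genes. These lists too were drawn up with earlier results known.

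*Agrn* encodes agrin, a heparan sulphate proteoglycan of basement membranes and synapses, and stood at 5 in each CTR and at 4 in each NPM1 KD library. *Spock2*, which encodes the proteoglycan testican-2, and *Loxl2*, which encodes an enzyme that crosslinks collagen, had the same 6 values. *Fbln1* and *Fbln2* encode the elastic fibre and basement membrane proteins fibulin-1 and fibulin-2, and stood at 6 in each CTR and at 5 in each NPM1 KD library. The difference was -1 ± 0.33 (SE) for *Agrn*, *Spock2* and *Loxl2* and -1 ± 0.34 for the 2 fibulins (limma, adjusted p = 0.0791 for each). Values were uniform within both groups for these 5 genes, as for *Lamc1*, and such a single step can come from a change of under 1 unit. The perlecan gene *Hspg2* stood at 4, 4 and 3 in CTR and at 3 in each NPM1 KD library, and thus overlapped in CTR replicate 3. *P4ha1* and *Plod3*, which modify collagen chains, showed the same form with values of 6, 6 and 5 against 5 and of 5, 5 and 4 against 4. *P4hb*, the β subunit of the prolyl hydroxylase, stood at 7 in all libraries.

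**Figure D3:**
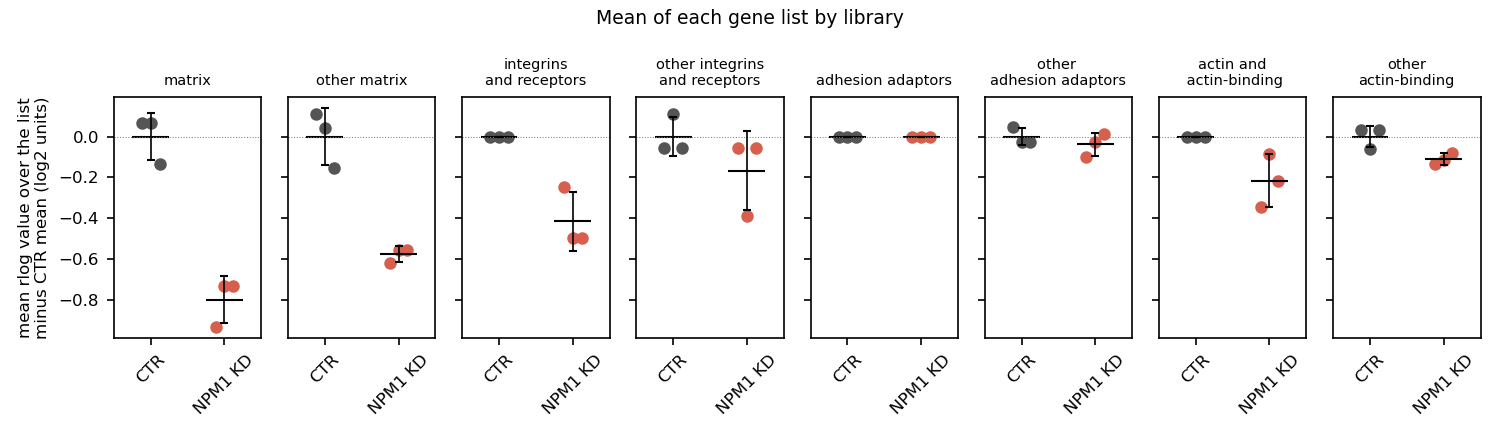
Mean rlog value over the fitted genes of each list in each library, minus the CTR mean of that list (log2 units), with grey points for CTR, red points for NPM1 KD, lines for the group means and bars for the SD over 3 libraries. The 3 NPM1 KD points lie under the 3 CTR points for both matrix lists, with group differences of -0.80 and -0.58. They also do so for the integrins and receptors, the actin and actin-binding genes and the further actin-binding genes. The differences of these lists are -0.42, -0.22 and -0.11. The groups overlap for the further receptors and the further adaptors, and all 6 points coincide for the 3 adaptors.

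The CTR libraries had a mean over the 5 fitted matrix genes of 5.2, 5.2 and 5.0, and the NPM1 KD libraries one of 4.2, 4.4 and 4.4. Over the 15 further matrix genes these means were 5.13, 5.07 and 4.87 for CTR against 4.40, 4.47 and 4.47 for NPM1 KD. CTR replicate 3 was the lowest of the CTR libraries in both, and still lay above every NPM1 KD library. As an order of the libraries, such a separation was not particular to matrix genes. The mean over all fitted genes also lay lower in every NPM1 KD library, at 5.27 to 5.30 against 5.31 in each CTR library. The mean difference was -0.02 over all fitted genes, -0.80 over the 5 matrix genes and -0.58 over the 15 further ones. These sizes were not tested against each other. The longest coding transcript in GENCODE M21 is 8315 bases for *Fn1*, 7622 for *Lamc1* and 7262 for *Agrn*, and 2300 for *Sparc*. It is 3815 for *Itgb1* and 3659 for *Fbln1*, each with a difference of -1. For *Tln1* and *Myh9*, each with a difference of 0, it is 8393 and 7433. Over all fitted genes with such a transcript, the groups did not overlap, with NPM1 KD lower, in 3.06% of genes under 2 kb, 3.75% of those from 2 to 5 kb and 3.34% of those of 5 kb or more. NPM1 KD was the higher group without overlap in 2.52%, 2.18% and 1.57% of the same classes, and their mean differences were -0.0094, -0.0367 and -0.037. The part of transcript length in the differences of single genes was not tested.

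Of the 8 integrins and receptors, 4 were fitted. *Itgb1* encodes integrin β1, the common partner of α subunits that bind fibronectin, laminin and collagen. Its rlog value was 8 in each of the 3 CTR libraries and 7 in each of the 3 NPM1 KD libraries, a difference of -1 ± 0.35 (SE) at a mean normalized count of 181.2. The groups were uniform and did not overlap, but a change of under 1 unit across a rounding edge would give the same values.

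The α subunits that can pair with it had smaller differences. *Itga6*, a laminin-binding subunit, stood at 6, 5 and 5 in CTR and at 5 in each NPM1 KD library. *Itgav*, which binds fibronectin and vitronectin, stood at 4 in every library except NPM1 KD replicate 2, where it was 3. Both had a difference of -0.33 and overlapped. *Itga3* and *Itga5*, the latter the α chain of the classical fibronectin receptor, stood at 3 and 2 in all libraries, under the minimum for the fit, and so did *Itgb5* at 3. Whether *Itgb1* differed from its α partners was not tested.

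*Sdc1* encodes syndecan-1, a heparan sulphate proteoglycan that acts as a co-receptor for matrix. It stood at 4, 5 and 5 in CTR and at 5, 5 and 4 in NPM1 KD, a difference of 0. *Cd44*, the hyaluronan receptor, was near the floor with a mean normalized count of 0.341. Among 33 further receptor genes, 6 were fitted, 3 with a difference of -0.33 (*Ddr1*, *Ddr2* and *Cd47*) and 3 with a difference of 0 (*Gpc1*, *Gpc6* and *Cd151*). The limma fit called 0 of these 6, with 0 at an unadjusted p under 0.05, and all 6 overlapped between the groups. Over all fitted genes 0.487% were called, and the groups separated in 3.41% (lower) and 2.19% (higher).

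The promoter of *Itgb1* is shown because it was the receptor gene whose groups did not overlap. The sequence is the 250 bases before the start in RefSeq, at chr8:128685404-128685653 on the plus strand of GRCm38.p6, an older build than the GRCm39 named for the expression table. Capitals mark a GC box, GGGCGG, starting 151 bases before the start, and a TEAD element, CATTCC read on the other strand as GGAATG, starting 7 bases before it.
Itgb1: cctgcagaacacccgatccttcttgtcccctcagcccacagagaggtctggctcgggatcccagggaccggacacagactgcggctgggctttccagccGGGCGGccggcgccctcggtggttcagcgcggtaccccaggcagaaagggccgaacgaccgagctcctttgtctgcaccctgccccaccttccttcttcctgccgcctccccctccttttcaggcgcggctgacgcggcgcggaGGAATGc

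Promoter sequences were held for 40 of the 49 genes, in 46 windows. *Fn1* and *Lamc1* have no entry. The TEAD element was present in 11 of the 46 windows (23.9%), against 12.6% of all 32851 promoters and 9.52% of the 5460 promoters of fitted genes. Among the genes that hold it, *Itgb1* had a difference of -1, *Myh10* of -0.67, *Actn4*, *Flna*, *Pfn1* and *Tagln2* of -0.33 and *Tpm1* of 0. The other 4, *Ccn1*, *Col18a1*, *Timp1* and *Vcl*, were too low to be fitted. The GC box was present in 71.7% of the windows, 32.7% of all promoters and 61.0% of those of fitted genes. The CRE (TGACGTCA), AP-1 (TGANTCA) and CCAAT motifs were also searched, and were present in 2.17%, 8.7% and 39.1% of the windows. Of the promoters of fitted genes, 3.13%, 3.79% and 36.3% held them. All motifs were searched on both strands, and a match describes the letters only.

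Of the 6 adaptors, 3 were fitted, and none of the 3 differed by a step in any library. *Tln1*, which encodes talin, the protein that activates integrins by binding the β tail, stood at 4 in all 6 libraries. *Ptk2*, the gene of focal adhesion kinase, also stood at 4, and *Zyx*, the gene of the LIM domain protein zyxin, at 5. A value that stays on 1 whole number can hide a change of less than a step. The standard error of the fit was 0.35 for *Tln1* and *Ptk2* and 0.33 for *Zyx*. *Pxn*, the paxillin gene, stood at 3 in all libraries and *Vcl*, the vinculin gene, at 2 apart from NPM1 KD replicate 1, where it was 1. *Ilk* was listed at 0. It shares 89.7% of its exon bases (2461 of 2744 in GENCODE M21) with *Taf10* and *Rrp8* on the opposite strand, and *Taf10* had a mean normalized count of 1.54.

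Further genes of the adhesion complex and of its signalling were also close to even. Of 57 listed, 27 were fitted, 6 with a lower mean, 4 with a higher and 17 with an equal one, with a mean difference of -0.04. In none of the 27 did the groups separate, against 3.41% (lower) and 2.19% (higher) of all fitted genes. The limma fit called 0 of them, against 0.487% of all fitted genes, with 1 at an unadjusted p under 0.05. The small GTPase genes *Rhoa*, *Rac1* and *Cdc42* stood at 7, 6 and 8 in all libraries. The talin and parvin genes *Tln2*, *Parva* and *Parvb* stood at 4, 5 and 8 in all libraries. *Rock2*, a kinase that raises myosin activity, stood at 4, 5 and 5 in CTR and at 4 in each NPM1 KD library. *Csk*, a kinase that restrains Src, stood at 4, 3 and 3 in CTR and at 4 in each NPM1 KD library.

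All 23 actin and actin-binding genes were fitted, 12 with a lower mean, 10 with an equal one and 1 with a higher one. In none of the 23 did the groups separate. Over all fitted genes they separated in 3.41% with NPM1 KD lower and in 2.19% with it higher, so nothing is read from this. *Actg1*, which encodes cytoplasmic γ-actin, stood at 9, 9 and 10 in CTR and at 8, 8 and 9 in NPM1 KD, a difference of -1 ± 0.34 (SE) with an overlap at 9. *Actb*, the β-actin gene, stood at 11 in each CTR library and at 10, 11 and 11 in NPM1 KD, a difference of -0.33 ± 0.31 (SE). The coding sequences of the 2 actins are identical at 88.7% of 1128 bases. Reads that the counting placed on the wrong copy would move both values, and this was not tested.

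The motor proteins of actin filaments varied by subunit. *Myh10*, the heavy chain of non-muscle myosin IIB, stood at 5 in each CTR library and at 4, 5 and 4 in NPM1 KD, a difference of -0.67. *Myh9*, the heavy chain of myosin IIA, stood at 6, 6 and 5 in both groups. Among the light chains, *Myl12a* stood at 7 and *Myl12b* at 5 in all libraries, and *Myl6* stood at 11 in all but NPM1 KD replicate 2, where it was 10. *Myl12a* and *Myl12b* are uncertain as single genes, since their coding sequences are identical at 96.5% of 519 aligned bases and GENCODE M21 has a further gene that overlaps both.

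The tropomyosins, which coat the filament, were even or within a step. *Tpm1* and *Tpm2* stood at 5 in all libraries. *Tpm3* was 7 in CTR replicate 3 and 6 elsewhere, and *Tpm4* was 6 in NPM1 KD replicate 3 and 7 elsewhere. Among the crosslinkers, *Actn1* (α-actinin-1) stood at 5 throughout, *Actn4* (α-actinin-4) was 4 in NPM1 KD replicate 1 and 5 elsewhere, and *Flna* (filamin A) was 5 in NPM1 KD replicate 3 and 6 elsewhere.

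Filament turnover depends on cofilin and profilin. *Cfl1*, the gene of the severing protein cofilin-1, stood at 9 in each CTR library and at 8, 9 and 9 in NPM1 KD. *Pfn1*, the gene of the monomer-binding protein profilin-1, and *Tagln2*, the gene of transgelin-2, stood at 8 in each CTR library and at 7, 8 and 8 in NPM1 KD. In all 3, and in *Actb* and *Actn4*, the lower value was that of NPM1 KD replicate 1, the library with the lowest relative depth (0.784, assigned to it by 2 genes). These 5 genes were at the CTR level in the other 2 NPM1 KD libraries. Further genes of this kind had other values. *Dstn*, a relative of cofilin, stood at 8 throughout, and *Pfn2* (profilin-2) at 6 in each CTR library and 5, 5 and 6 in NPM1 KD. *Cfl2* (cofilin-2) stood at 6 in each CTR library and at 6, 5 and 5 in NPM1 KD, and *Tmsb4x*, the gene of the monomer-binding thymosin β4, at 8 and at 8, 7 and 7, so that NPM1 KD replicate 1 was at the CTR level in both. The mean over the 23 genes was lowest in NPM1 KD replicate 1, at 6.17, against 6.43 and 6.30 in NPM1 KD replicates 2 and 3 and 6.52 in each CTR library. Over all fitted genes, the mean was 5.303 in NPM1 KD replicate 1, against 5.2662 and 5.2931 in NPM1 KD replicates 2 and 3. The part of depth in the values of the actin and actin-binding genes was not tested.

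The 3 genes of the ERM family, which tie actin to the plasma membrane, had differences of -0.67, 0 and 0.33. *Msn* (moesin) stood at 5, 5 and 4 in CTR and at 4 in each NPM1 KD library, a difference of -0.67. *Ezr* (ezrin) stood at 4 throughout. *Rdx* (radixin) stood at 5, 6 and 6 in CTR and at 6 in each NPM1 KD library, a difference of 0.33 that rests on CTR replicate 1. Of the calponins, *Cnn3* stood at 6 in all libraries, and *Cnn2* stood at 6, 5 and 5 in CTR and at 5, 6 and 5 in NPM1 KD. *Akap12*, which encodes a kinase scaffold at the cell cortex, stood at 6 in all libraries.

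Among 98 further actin-binding genes, 97 were in the table and 54 were fitted. The mean was lower for 17, equal for 27 and higher for 10, with a median difference of 0. The limma fit called 0 of them, with 9 at an unadjusted p under 0.05. Among all 5752 fitted genes, 0.487% were called and 813 had an unadjusted p under 0.05. The groups did not overlap in 3, or 5.56%, all lower upon NPM1 KD, against 3.41% of all fitted genes. *Cald1*, the gene of caldesmon, which restrains myosin on the filament, stood at 7 in each CTR and at 6 in each NPM1 KD library (difference -1 ± 0.35 SE, limma, adjusted p = 0.0791). *Limk1*, a kinase that inactivates cofilin, and *Wasf1*, a subunit of the WAVE complex that drives branching, stood at 4 in each CTR and at 3 in each NPM1 KD library (difference -1 ± 0.39 SE, limma, adjusted p = 0.166 for both). Their paralogs *Limk2* and *Wasf2* stood at 4 and 5 in all libraries. *Ssh1* and *Ssh2*, cofilin phosphatases that act against LIM kinases, had a difference of 0.67 each and overlapped.

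**Figure D4:**
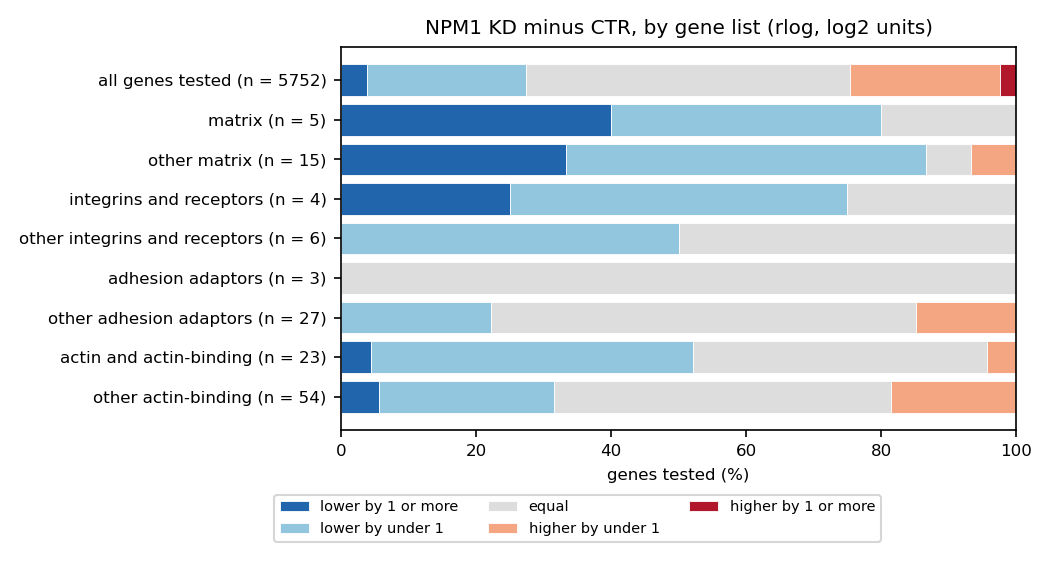
Share of the fitted genes of each list (%, n beside each name) by the difference NPM1 KD minus CTR (rlog, log2 units), for all fitted genes, the 4 groups of the 49 genes and the 4 lists of further genes. Genes lower by 1 or more make up 3.79% of all fitted genes, 40.0% of the 5 matrix genes, 33.3% of the 15 further matrix genes and 5.56% of the 54 further actin-binding genes.

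Actin and its partners are textbook targets of serum response factor (SRF), which binds the CArG box. A CArG box, searched on both strands, lay in the 250 bases before the start of 4 of the 40 genes, in 8.7% of their 46 windows. Of all promoters 1.47% held it and of those of fitted genes 1.32%. The 4 genes were *Actg1*, *Cnn2*, *Myl6* and *Vcl*, with differences of -1, 0, -0.33 and -0.33 in this order, *Vcl* lying under the minimum for the fit. The stretches are shown to set the 4 boxes side by side, from RefSeq on GRCm38.p6, each 50 bases 5′ to 3′ on the strand of the gene with the box in capitals. They lie at chr11:120348556-120348605 on the minus strand for *Actg1*, chr10:79988524-79988573 on the plus strand for *Cnn2*, chr10:128493030-128493079 on the minus strand for *Myl6* and chr14:20929151-20929200 on the plus strand for *Vcl*.
Actg1: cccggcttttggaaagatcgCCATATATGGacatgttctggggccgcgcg
Cnn2: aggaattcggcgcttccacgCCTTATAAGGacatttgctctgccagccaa
Myl6: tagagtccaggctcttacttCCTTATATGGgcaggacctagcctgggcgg
Vcl: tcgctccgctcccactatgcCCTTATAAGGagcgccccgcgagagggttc
The box starts 90 bases before the start of *Actg1*, 56 before that of *Cnn2*, 50 before that of *Myl6* and 227 before that of *Vcl*. Among the genes that hold it, the differences thus ranged from -1 to 0.

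The factors themselves were low. Of 16 genes of the SRF and YAP pathways listed, 14 were in the table and 3 were fitted. *Srf* stood at 4 in all libraries with a mean normalized count of 14.0. *Wwtr1*, which encodes the coactivator TAZ, stood at 4, 3 and 3 in both groups, and *Lats1*, a kinase that restrains YAP and TAZ, at 4, 3 and 4 in CTR and 4 in each NPM1 KD library. The SRF coactivator genes *Mrtfa* and *Mrtfb* stood at 2 in all libraries. *Tead1* stood at 2 in all but NPM1 KD replicate 3, where it was 3, and the other TEAD genes *Tead2*, *Tead3* and *Tead4* had mean normalized counts of 0.256, 1.76 and 0.213. *Yap1* had a mean normalized count of 0.622, and *Lats2*, *Amotl1*, *Amotl2* and *Ankrd1* lay between 0.262 and 0.975. The limma fit called 0 of the 3 that could be tested, with 0 at an unadjusted p under 0.05. Over all fitted genes 0.487% were called, so nothing is read from a count over 3 genes.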

How the data were processed

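Total RNA of 6 N2a samples was made into PCR-cDNA libraries and read on a nanopore device. Per the labels, the submitters' processing notes name minimap2, featureCounts, DESeq2 and the build GRCm39. Their versions are not given in the sources used here. The authors deposited an rlog score per gene and library (log2 scale, normalized for library size), and, in a second table, the mean normalized count over all libraries. That table also holds the authors' fold changes, standard errors, test statistics and p-values, which were not used. Raw counts were not analysed here, so relative depth was taken from genes whose mean count equals that of a single read in 1 library. No interval from counting error is given.

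Of 26913 rows, 257 repeated a gene ID and were dropped, and 11880 genes were at 0 throughout. Genes with a mean rlog of at least 3.32 (log2 of 10) were fitted with limma 3.58.1 in R 4.3.3, with an intensity trend, a floor of 0.0833 on the residual variance (the variance of rounding to whole numbers) and Benjamini-Hochberg adjustment at 0.05, two-sided. Scripts were tested on simulated data. Members of the gene lists, and the lists of further genes and markers, were chosen with earlier results of these data known. Genes named were those whose groups did not overlap (per list of further genes at most 5 in each direction), those that complete a family or subunit pair, and all factors detected. Further genes with a difference of 0.67 or less, among them collagen-modifying enzymes, kinases and GTPases, were named after their values were seen. A few markers of the neuroblast list are not reported here, and its counts and sums leave them out. Alternatives changed the floor, the trend, the filter, robust moderation and the centring of libraries, added a replicate block or left out each library. Motifs were searched with Python 3.11.15, and coding sequences were aligned with Biopython 1.88. Coding sequences are the longest open reading frame in GENCODE M21.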

Additional observations from a re-analysis of the deposited data

How the results depend on the processing

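The main fit called 4 genes higher and 24 lower. Without the variance floor it called 123 and 178, and without the intensity trend 132 and 218. Leaving out 1 library gave 0 to 2 higher and 5 to 9 lower. Of the 49 genes, 1 (*Fn1*) was called. Without the floor 2 were (*Itgb1* and *Lamc1*), without the trend 4 (*Actg1*, *Fn1*, *Itgb1* and *Lamc1*), and 0 of 23 at a mean rlog of at least 5. Leaving out 1 library gave 0 to 1, and 0 without CTR replicate 1 or 2. Of the further genes, 0 were called, but 8 without the floor and 8 without the trend, the 8 whose groups did not overlap. Values of these 8 were uniform within both groups, so without the floor their residual variance was 0 and those calls measure no spread. Why they were called without the trend was not tested.

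With a replicate block, 1 gene was called higher and 7 lower. Deviations of same-numbered libraries correlated at 0.009, 0.001 and 0.03, so the numbers were not taken to pair the libraries.

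At a mean rlog of at least 5, the mean difference was 0 for the 1 matrix gene left (*Sparc*) and -0.67 for 2 integrins and receptors. With no filter it was -0.52 for 9 matrix genes, -0.24 for 7 integrins and receptors, -0.0667 for 5 adaptors and -0.35 for 31 further matrix genes. Centring the libraries gave 0.0239 for the adaptors. Other alternatives moved these means by less than the spread between libraries. Rounding to whole numbers limits every gene. A change of less than 1 log2 unit can leave all 6 values equal, or set the groups a full step apart.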
